A study of Mus musculus with 6 samples.

Results

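MiRNA entries with late numbers in miRBase, 2000 and above, were described in small RNA sequencing profiles of brown and subcutaneous fat of the mouse. The entries were selected on their name and on a level above the table minimum in at least 1 of 6 libraries, and miR-3107, which overlaps the miR-486 locus, was left out. This gave 28 of the 306 late-numbered entries, out of 1251 entries in the deposited table. The remaining 278 late-numbered entries were listed at the table minimum in all 6 libraries. The brown group (BF-EPA) held 3 libraries of interscapular brown adipose tissue, numbered 3, 4 and 5, and the subcutaneous group (SUB-EPA) held 3 of inguinal adipose tissue, numbered 1, 3 and 8. All came from C57BL/6J mice, an inbred strain. Their listed age of 5 to 6 weeks is shorter than the feeding time, so it cannot be the age at sampling. The mice ate a high fat diet for 11 weeks. Of the energy in that diet, 45% came from fat, 20% from protein and 35% from carbohydrate. Both groups received EPA (eicosapentaenoic acid, an omega-3 fatty acid abundant in fish oil), at 6.75% per the series' design text and by title, and were fasted for 4 hours before sampling. Both groups thus shared strain, diet and EPA, and differed by tissue. The labels name no genetic change, give no sex, and leave unsaid whether any mouse gave both tissues.

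A miRNA is cut from a hairpin precursor by Drosha and Dicer and guides Argonaute proteins to mRNAs that pair with its seed, bases 2 to 8 of the mature strand. MiRBase numbers follow the order of submission, so the well-known conserved miRNAs mostly have low numbers. Late numbers were mostly given to entries found by deep sequencing, many of them rare or restricted to rodents, and some such entries overlap repeats, small nucleolar RNAs (snoRNAs) or other abundant RNAs. Brown fat burns fuel to make heat, while inguinal fat is a white, energy-storing depot.

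RefSeq (build GRCm38.p6, the assembly also called mm10) gave mature sequences for 20 of the 28 entries. Those of the tested entries that were higher in brown fat are shown first, 5′ to 3′, with the seed in capitals, because their base composition is described with the results.
miR-2137: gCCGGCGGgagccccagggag
miR-5126: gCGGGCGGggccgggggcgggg
miR-5130: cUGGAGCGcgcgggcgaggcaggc
miR-6366: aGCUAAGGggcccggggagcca
miR-6538: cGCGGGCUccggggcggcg
miR-5122: cCGCGGGAcccggggcugug
miR-6240: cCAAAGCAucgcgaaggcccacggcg
miR-6406: cGCGACCUcaggcugacucaug
miR-3470b: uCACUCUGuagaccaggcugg
miR-3061-3p: cUACCUUUgauaguccacugcc
Next are 3 entries that did not pass the test, of which the first pair shares its seed and its first 18 bases.
miR-3473b: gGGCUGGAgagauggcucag
miR-3473e: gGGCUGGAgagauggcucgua
miR-3102-3p: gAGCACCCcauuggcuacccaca
MiR-3473b and miR-3473e were the one pair among the 20 with a common seed. No mature sequence was matched for miR-3470a, miR-3960, miR-5099, miR-5105, miR-5109, miR-5115, miR-5117-3p and miR-6243.

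Late-numbered entries were seldom above the minimum, and more of them were above it in brown than in subcutaneous libraries. Of the 306 late-numbered entries 9.2% exceeded the minimum in at least 1 library, against 33.1% of the other 945 entries. Brown libraries 3, 4 and 5 listed 17, 22 and 25 of them above the minimum. Subcutaneous libraries 1, 3 and 8 listed 8, 13 and 10, so the groups did not overlap. Among the other entries the groups overlapped, with 221 to 233 above the minimum in brown and 227 to 260 in subcutaneous libraries. By number, 2 of 5 entries in the 2000s were above the minimum, 10 of 140 in the 3000s, 10 of 59 in the 5000s and 6 of 102 in the 6000s. These counts use the measure that chose the entries and carry no test.

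**Figure D1:**
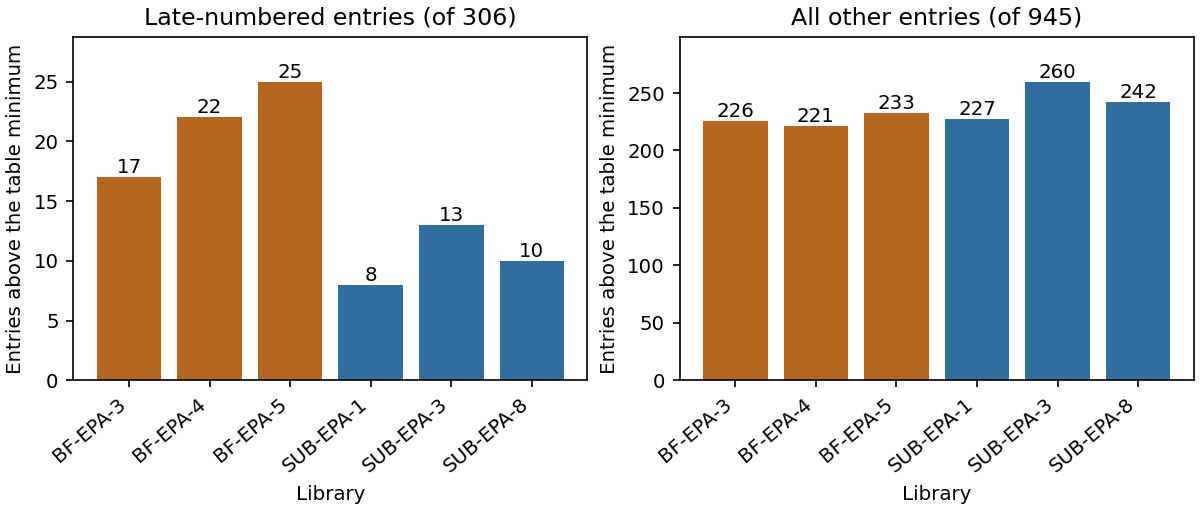
Number of entries above the table minimum in each library (bars, from 0), for the late-numbered entries on the left and all other entries on the right. Brown libraries hold 17 to 25 late-numbered entries and subcutaneous libraries 8 to 13, while the other entries number 221 to 260 per library.

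The pattern over libraries was mostly one of presence in all brown libraries. Of the 28 entries, 5 were above the minimum in all 6 libraries, 7 in all brown and no subcutaneous library, and 5 in all brown and some subcutaneous libraries. Another 7 exceeded it in 1 library alone, and 4 had other patterns. No entry was above the minimum in all subcutaneous libraries while at the minimum in all brown ones. Among the 313 other entries above the minimum, 10 had the all-brown pattern and 18 the all-subcutaneous one. The lowest peak values inside the rule were 4.95 (miR-5121), 5.00 (miR-3470a) and 5.30 (miR-3086-5p) on the log2 scale, against the minimum of 3.32. The nearest entries below number 2000 that exceeded the minimum were miR-1983, with a peak of 6.34, and miR-1981-3p, with a peak of 8.19. The entry left out by name, miR-3107-5p, stood at 17.68 in all brown libraries and at 14.15, 14.95 and 15.09 in subcutaneous libraries 1, 3 and 8.

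The deposited normalization left nearly the same linear total in every library (2403968 to 2405236 with the minimum subtracted), and gave some abundant entries 1 value in all brown libraries. Shares of a library are therefore shares of normalized values and not of reads. Summed over the 28 entries, with the minimum subtracted on the linear scale, they made up 1.24%, 1.03% and 1.35% of brown libraries 3, 4 and 5. They made up 0.075%, 0.081% and 0.057% of subcutaneous libraries 1, 3 and 8, so every brown share was above every subcutaneous share. The mean was 1.20% ± 0.16 (SD, n = 3) in brown and 0.071% ± 0.012 (SD, n = 3) in subcutaneous fat, a ratio of 17.0. Without miR-2137, the most abundant entry, the means were 0.789% and 0.063%, a ratio of 12.5. The brown sum was led by miR-2137, with 32.8% to 36.0% of it, and by miR-5126, with 19.4% to 22.2%. The subcutaneous sum had another leader, miR-5115, with 57.4%, 26.1% and 26.0% of it in libraries 1, 3 and 8.

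The tissues were compared with limma over all 269 miRNAs that passed a filter on low levels, 21 of them late-numbered. Of these 21 entries, 16 were higher in brown fat at a limma adjusted p under 0.05 and 0 were lower, where 33.5% of all tested miRNAs were higher and 35.7% lower. The median log2 difference, brown minus subcutaneous, was 4.19 over the 21 entries and -0.45 over all 269. For the same 16 entries every brown value was above every subcutaneous value, and the reverse held for 0 of 21. Over all tested miRNAs the shares were 33.8% and 40.1%. These counts and the median describe the 21 tested entries, not all 28, and are no support for a tissue difference, because 10 of the 16 had a mean past the filter in brown fat alone. Counted over entries whose mean passed the filter in each tissue, a count added after seeing the data, 6 of 9 late-numbered entries were higher in brown fat and 0 lower. The 6 were miR-2137, miR-5105, miR-5109, miR-5115, miR-5126 and miR-6243. Over all 204 such miRNAs, 31.9% were higher and 36.3% lower. Of the 6, miR-5105, miR-5109, miR-5115 and miR-6243 had no matched mature sequence and no matched hairpin position. Their base composition is therefore unknown here, and of the 6 it is described for miR-2137 and miR-5126 alone. When scaled by the median of ratios, the median of all tested miRNAs moved from -0.45 to -0.04 and that of the entries to 4.61. This scaling shifts every log2 difference by the same amount, also for entries at the minimum, whose listed minimum then differs between the tissues. MiRNA abundance here is relative, and fewer cells that make a miRNA cannot be told apart from less of it per cell.

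**Figure D2:**
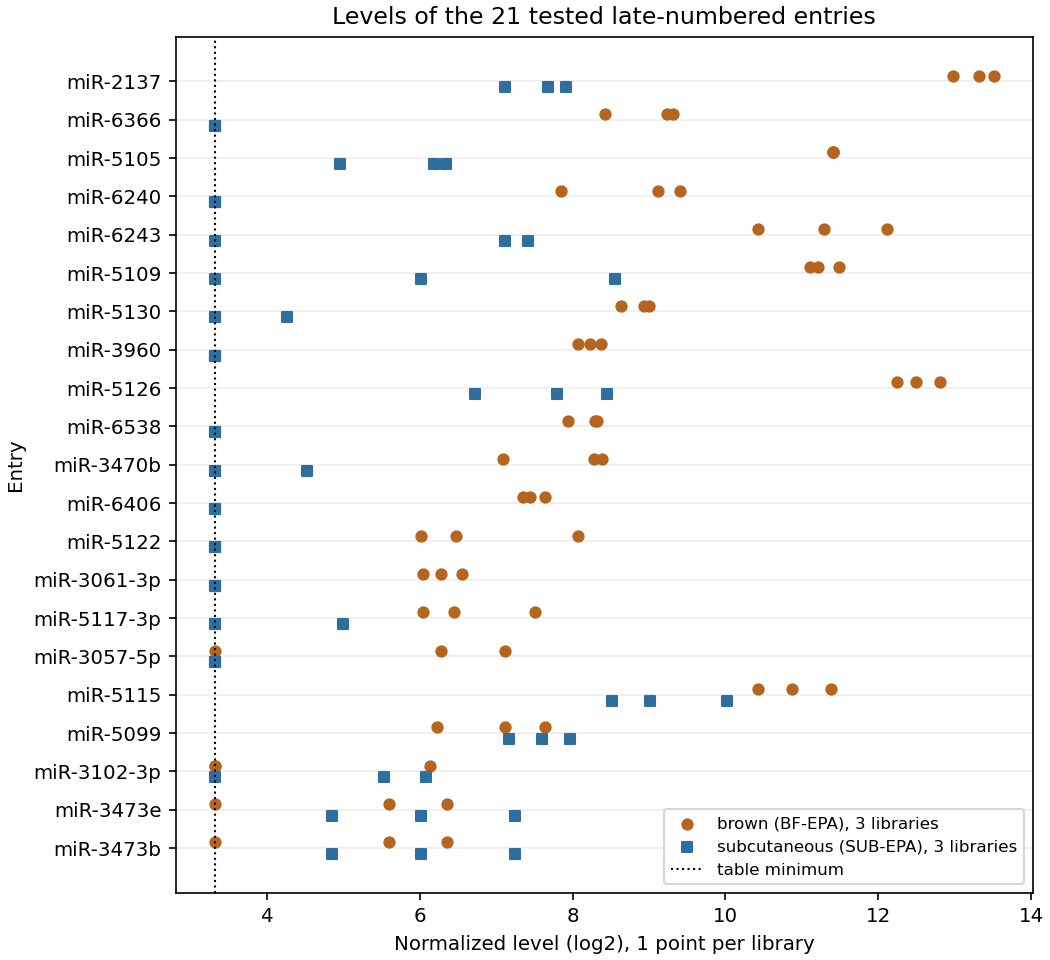
Normalized log2 level of each tested late-numbered entry, with 1 point per library, brown as circles and subcutaneous as squares, and the table minimum as a dotted line. In the 16 entries that passed the test all brown points lie to the right of all subcutaneous points, and miR-2137 reaches the highest level, 13.51.

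The abundant entries were led by miR-2137, which lies in an intron of Zfp185 on the same strand (chrX:72992079-72992144, GRCm38). It stood at 13.32, 12.98 and 13.51 in brown libraries 3, 4 and 5 and at 7.68, 7.91 and 7.11 in subcutaneous libraries 1, 3 and 8. It was among the 39 most abundant of all 1251 entries in every brown library (ranks 34 to 39) and ranked 151 to 178 in subcutaneous fat. The log2 difference was 5.71 ± 0.27 SE, 52.2-fold (limma adjusted p = 1.7e-05).

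MiR-5126, made of G and C alone, came next in brown fat. Its hairpin (chr1:84695839-84695915) lies opposite to the 5′ UTR of Dner, a neuronal Notch ligand. Its levels were 12.50, 12.25 and 12.81 in brown and 6.72, 8.45 and 7.80 in subcutaneous libraries, in the same library order. The brown values were within 0.56 of each other, while the subcutaneous ones spread over 1.73. The log2 difference was 4.87 ± 0.45 SE (limma adjusted p = 0.00015).

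MiR-5105 was listed at a single value, 11.41, in all 3 brown libraries, and at 6.34, 6.19 and 4.95 in the subcutaneous ones. The groups lay 5.07 apart at their nearest points. Its log2 difference was 5.58 ± 0.40 SE (limma adjusted p = 5.7e-05), but the identical brown values contribute nothing to the spread, which can make both SE and p too small.

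MiR-6243 and miR-5109 were high in brown fat and uneven in subcutaneous fat. MiR-6243 stood at 12.12, 10.43 and 11.29 in brown libraries and at 3.32 (the minimum), 7.42 and 7.11 in subcutaneous libraries 1, 3 and 8. MiR-5109 stood at 11.48, 11.10 and 11.21 in brown libraries and at 6.01, 8.56 and 3.32 in the subcutaneous ones. Different subcutaneous libraries were thus at the minimum for each, library 1 for miR-6243 and library 8 for miR-5109. The log2 difference of miR-6243 was 5.33 ± 1.13 SE (limma adjusted p = 0.0058), and 4.02 without subcutaneous library 1 or 6.07 without library 3. That of miR-5109 was 5.30 ± 1.22 SE (limma adjusted p = 0.0081), and 3.98 without subcutaneous library 8 or 6.60 without library 3.

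MiR-5115 was the abundant entry with the least difference. It stood at 10.43, 10.87 and 11.38 in brown libraries and at 10.02, 9.01 and 8.52 in subcutaneous ones. The nearest values of the groups, brown library 3 and subcutaneous library 1, were 0.41 apart. The log2 difference was 1.71 ± 0.44 SE, 3.28-fold (limma adjusted p = 0.013). The call was lost without brown library 5 (adjusted p = 0.057), without both libraries numbered 3 (adjusted p = 0.0828) and without the 2 libraries highest in the muscle miRNA miR-133a-3p (adjusted p = 0.126).

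Another 7 entries were above the minimum in every brown library and listed at it in every subcutaneous one, so no fold is given for them and any difference is measured from the minimum. They passed the filter through brown fat alone, so their levels are given as a description, with no p. Highest was miR-6366, at 8.42, 9.23 and 9.31 in brown libraries 3, 4 and 5, whose hairpin (chr16:18165089-18165170) overlaps no other annotated gene. MiR-6240 stood at 9.12, 9.40 and 7.85, with brown library 5 the lowest, and also overlaps no other gene (chr5:114851948-114852064). It shares its seed with miR-330-3p, which exceeded the minimum in brown libraries 3 (5.49) and 4 (6.01) alone and was not tested. The other 5 had lower brown means.

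MiR-3960 stood at 8.23, 8.37 and 8.07 in brown libraries. It is known with miR-2861 from bone-forming cells, where they act in osteoblast differentiation. Both hairpins lie in the 5′ UTR of Cdk9, a kinase that releases paused RNA polymerase (chr2:32712900-32712972 for miR-3960 and chr2:32712807-32712888 for miR-2861), with 11 bases between them. In spite of that distance the levels differed: miR-2861 was above the minimum in brown library 5 alone, at 5.30.

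MiR-6538, in an intron of Rnf144a (chr12:26414901-26415010), stood at 7.94, 8.32 and 8.29 in brown libraries. MiR-6406, antisense to an intron of Ntn1, the gene of the guidance cue netrin-1 (chr11:68220892-68221011), stood at 7.35, 7.44 and 7.64. These 2 entries varied little among the brown libraries, by 0.38 and 0.29. MiR-5122 was more variable, at 8.07, 6.01 and 6.48, with brown library 3 the highest. Measured from the minimum, its log2 difference was 3.53, and 2.92 without that library. MiR-3061-3p was the least abundant of the 7, at 6.04, 6.55 and 6.28, and its hairpin overlaps the 3′ UTR of Ppp2ca, a catalytic subunit of protein phosphatase 2A (chr11:52126746-52126836).

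The remaining 3 entries were above the minimum in subcutaneous library 3 but not in libraries 1 and 8, and they too passed the filter through brown fat alone and are described with no p. MiR-5130, in the 5′ UTR of Kctd12 (chr14:102982549-102982632), stood at 8.63, 9.00 and 8.94 in brown libraries and at 4.26 in subcutaneous library 3. MiR-3470b stood at 7.09, 8.28 and 8.39 in brown libraries and at 4.53 in subcutaneous library 3. MiR-5117-3p stood at 6.04, 6.45 and 7.51 in brown libraries and at 5.00 in subcutaneous library 3. In all 3, brown library 3 was the lowest of the brown libraries and still above every subcutaneous value. With the minimum standing in for the other subcutaneous libraries, the log2 differences were 5.22 for miR-5130, 4.19 for miR-3470b and 2.79 for miR-5117-3p. GENCODE M21 lists the miR-5117 locus as a snoRNA gene within an exon of Gas5, a host gene of many snoRNAs (chr1:161037356-161037439). Subcutaneous library 3 listed 9 of the 16 entries above the minimum, against 5 each in libraries 1 and 8.

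**Figure D3:**
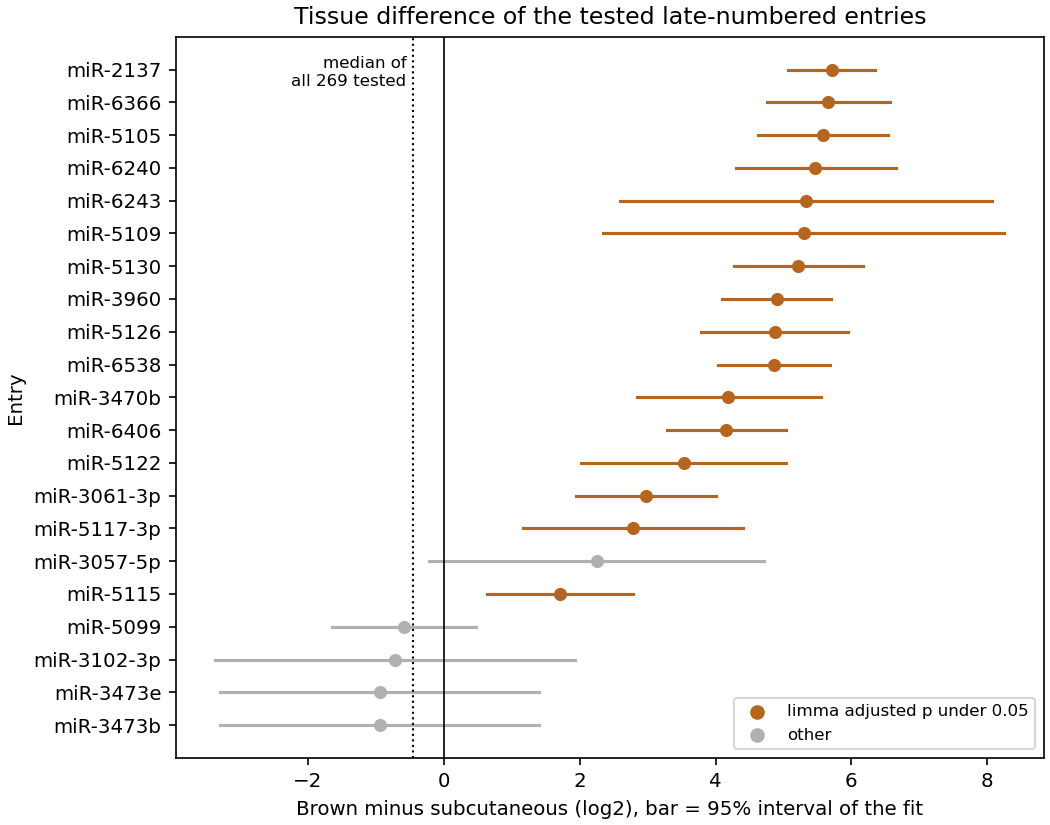
Log2 difference, brown minus subcutaneous, of the 21 tested late-numbered entries with the 95% interval of the limma fit; coloured points have an adjusted p under 0.05 and the dotted line is the median of all 269 tested miRNAs, -0.45. The 16 coloured points run from 1.71 (miR-5115) to 5.71 (miR-2137), and for entries at the table minimum in subcutaneous fat the difference is measured from that minimum. Of the 16, 10 passed the filter through brown fat alone.

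For 5 of the 21 tested entries the tissues overlapped and the test was not passed. MiR-5099 was above the minimum in all 6 libraries, at 6.23, 7.64 and 7.11 in brown and 7.96, 7.17 and 7.60 in subcutaneous fat. Its log2 difference was -0.59 with a 95% interval of -1.65 to 0.48 (limma adjusted p = 0.27), which leaves out differences of the size seen in miR-2137. MiR-3473b and miR-3473e had the same value in each library, 3.32, 5.60 and 6.35 in brown and 6.01, 4.85 and 7.24 in subcutaneous fat. They cannot be told apart here and amount to 1 measurement, with a log2 difference of -0.94 and a 95% interval of -3.29 to 1.40 (limma adjusted p = 0.41). Leaving out 1 library moved it to -0.06 (brown library 3), -1.57 (brown library 5), -1.53 (subcutaneous library 3) or -0.34 (subcutaneous library 8). MiR-3102-3p stood at 6.14 in brown library 5 and at 6.08 and 5.53 in subcutaneous libraries 3 and 8, with the others at the minimum (log2 difference -0.72, interval -3.36 to 1.93, limma adjusted p = 0.57). With 1 library left out it ranged from -1.65 (without brown library 5) to -0.17 (without subcutaneous library 3), so neither value is well determined.

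MiR-3057-5p, in a coding exon of Apba3 (chr10:81271597-81271687), was at the minimum in brown library 3 and in all subcutaneous libraries. It stood at 7.11 and 6.28 in brown libraries 4 and 5. This entry too passed the filter through brown fat alone and is described with no p. Measured from the minimum, its log2 difference was 2.25 ± 1.02 SE and did not pass the test. The difference was 3.37 without brown library 3, 1.48 without brown library 4 and 1.89 without brown library 5.

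The 7 entries that failed the filter each exceeded the minimum in 1 library. Brown library 5 alone held miR-6236 (6.48), miR-5100 (5.76), miR-2861 and miR-3086-5p (both 5.30), and brown library 4 alone held miR-3097-3p (6.01) and miR-3470a (5.00). MiR-5121 was the one entry above the minimum in subcutaneous fat alone, at 4.95 in library 8. Its hairpin (chr7:45126918-45126991) overlaps the snoRNA Snord33 within the ribosomal protein gene Rpl13a. With 1 library each, these values show detection in that library and no tissue pattern.

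Names and sequences showed further features, of which the first depends on the rule that chose the entries. Of the 6 entries whose name gives an arm, 5 had the opposite arm in the table, and each of those arms (miR-3057-3p, miR-3061-5p, miR-3086-3p, miR-3097-5p and miR-5117-5p) was at the minimum in all 6 libraries. These arms carry late numbers too, so the rule had sorted them by this same measure. They are among the 278 of 306 late-numbered entries at the minimum throughout. Exact matches of the mature sequence, on the sense strand of GENCODE M21 transcripts, were counted outside the entry's own hairpin. No other gene held a match for 11 of the 20 sequences, and 1 or 2 genes, those around the hairpin, did so for 7. For miR-3470b 590 other genes held one and for miR-3473b 358. These 2 sequences lie within the B1 and B2 families of short interspersed repeats, which are spread over mouse introns and UTRs. MiR-3470b, past the filter through brown fat alone, had every brown value above every subcutaneous value, while the miR-3473 pair overlapped between tissues.

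GC content was high in many of the entries. Among the 20 with a sequence the median was 64.3%, with a range of 45.0% to 100%, and 8 (40.0%) had 70% or more. Of the other entries above the minimum, 268 had a sequence, with a median of 50% and 2.6% at 70% or more. All 6 tested entries with 70% or more (miR-2137, miR-5122, miR-5126, miR-5130, miR-6366 and miR-6538) were higher in brown fat. Of these, miR-2137 and miR-5126 had a mean past the filter in each tissue, and the others in brown fat alone. Of the 5 with 60% to 70%, 2 were higher, and of the 3 with 50% to 60%, 2 were higher. Those higher in these ranges all passed the filter through brown fat alone, so the counts are a description.

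The other tested miRNAs moved with GC content too. Their median log2 difference was -1.70 below 40% GC (n = 19), -1.20 from 40% to 50% (n = 81), 0.09 from 50% to 60% (n = 81) and 1.18 from 60% to 70% (n = 31). Of those from 60% to 70%, 17 were higher in brown fat and 4 lower, against 1 higher and 13 lower below 40%. Across the 215 other miRNAs with a sequence the correlation of GC content with the difference was 0.45 (Pearson) and 0.46 (Spearman), over miRNAs of the same 6 libraries, which are not independent replicates. The 3 other tested miRNAs with 70% or more had a median of -0.44, with 1 higher.

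**Figure D4:**
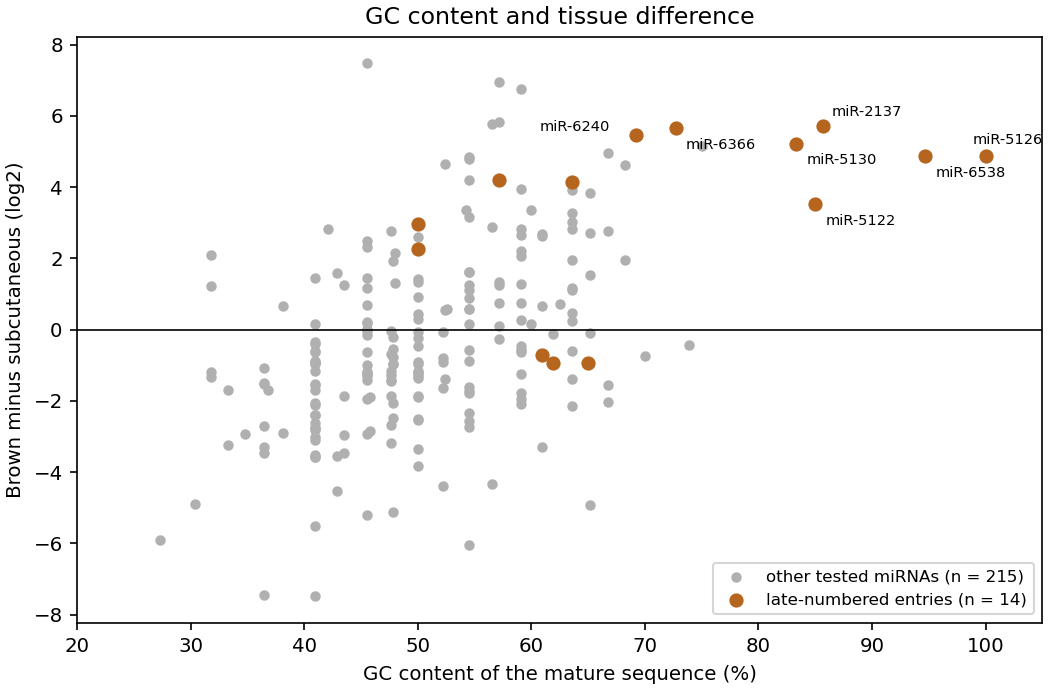
Log2 difference, brown minus subcutaneous, against the GC content of the mature sequence for the 229 tested miRNAs with a RefSeq sequence, late-numbered entries in colour and the other 215 in grey. Entries at 83% GC and above lie beyond the range of the grey points, which ends at 75.0%, and all sit above 0.

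When a linear trend with GC content was removed within each library, 7 of the 14 tested entries with a sequence were higher in brown fat and 1 was lower (limma adjusted p under 0.05). Over all 229 tested miRNAs with a sequence, 66 were higher and 72 lower. Of the 7, all but miR-2137 passed the filter through brown fat alone. The 14 are 66.7% of the 21 tested entries, too few for a check of the whole set, which is therefore void. For entries at the minimum in subcutaneous fat these differences, too, depend on that minimum. With the trend removed, miR-6366 had a log2 difference of 3.04, miR-6240 and miR-3061-3p 3.30 and miR-3470b 3.60. MiR-6406 was at 2.71 and miR-5130 at 1.21. All of these passed the filter through brown fat alone, so they are described with no p. MiR-2137, past the filter in each tissue, was at 1.39 (limma adjusted p = 0.00793). The direction turned for miR-5126, also past the filter in each tissue, to -1.31 (limma adjusted p = 0.00479). It turned as well for miR-5122, to -0.70, and miR-6538, to -0.63, which passed the filter through brown fat alone. The trend was fitted over all 229 miRNAs, the late-numbered entries included. Above 75.0% GC it held no other miRNA than miR-5126, miR-5122, miR-6538, miR-2137 and miR-5130. These entries thus helped to set the trend that was removed from them.

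The tissue labels were checked on marker miRNAs, as linear levels summed with the minimum subtracted. The 7 brown adipocyte markers, with miR-455-5p at the minimum throughout, summed to 463137 to 481039 in brown and 46966 to 50828 in subcutaneous libraries. This sum was set by miR-378a-3p, listed at a single value in all brown libraries. Every brown value of miR-378a-3p, miR-193b-3p, miR-365-3p and miR-455-3p was above every subcutaneous value. MiR-182-5p overlapped, at 12.2 in subcutaneous library 1 against 11.94 in brown library 4. MiR-203-3p overlapped too and leaned the other way (log2 difference -1.15, limma adjusted p = 0.42). The 3 markers of posterior body position summed to 11632 to 15736 and 95307 to 124694. Of the 4 red cell markers, miR-144-3p and miR-144-5p were at the minimum, and the other two went opposite ways. The sum, 209716 to 210003 in brown and 19492 to 36269 in subcutaneous libraries, was set by miR-486-5p (17.68 in every brown library, and 14.15 to 15.09). MiR-451a stood lower in brown fat, at 8.19 to 9.18 against 9.80 to 10.43 (log2 difference -1.49, limma adjusted p = 0.0066). The 6 leukocyte markers, with miR-142-3p and miR-155-5p at the minimum, were mixed as well. Their sum, 33362 to 45420 in brown and 15051 to 20196 in subcutaneous libraries, was set by miR-150-5p. Lower in brown fat were miR-223-3p (log2 difference -5.51, limma adjusted p = 0.00023) and miR-146a-5p (-3.10, limma adjusted p = 0.024). For liver, miR-122-5p was listed at 38.5 to 996 in brown libraries and at 0 in subcutaneous ones, and the 3 nerve markers (miR-124-3p and miR-9-5p at the minimum) at 912 to 1697 and 0. The 2 endothelial markers went the other way, with 3224 to 3803 in brown and 9901 to 12592 in subcutaneous libraries. Higher in brown fat, as many late-numbered entries were, were thus miR-122-5p, miR-486-5p, miR-150-5p and miR-129-5p, the one nerve marker above the minimum. MiR-451a, miR-223-3p, miR-146a-5p and the summed endothelial markers were lower. The part of any of these miRNAs in the result was not tested. The muscle markers, with 3 of 6 at the minimum, were highest in brown library 4 (151209) and subcutaneous library 3 (123084), against 1264 to 10308 elsewhere. Without those libraries 15 of the 21 entries were higher in brown fat and 0 lower. Over all 269 tested miRNAs, 80 were then higher and 89 lower. The epithelial markers were highest in subcutaneous library 1 (39511, against 267 to 411 elsewhere). Without that library 16 of the 21 entries were higher and 0 lower, against 91 higher and 97 lower over all 269. Both counts include entries that passed the filter through brown fat alone, and the part of muscle or epithelium was not tested.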

How the data were processed

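Per the labels' protocols, total RNA of frozen adipose tissue was made into libraries by an Illumina small RNA protocol. The series' design text names mm10 as the mapping reference and describes counts normalized to total usable reads with 40 added. Aligner, trimming and miRNA annotation were not given in the sources used here. Values deposited by the authors are on a log2 scale, in 6 columns matched to the samples by title. They have a common minimum of 3.32 (10 on the linear scale, which does not match the 40 said to be added) and nearly equal distributions (235 to 273 entries above the minimum), so read depth is unknown and differences are relative.

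Brown and subcutaneous libraries were compared with limma 3.58.1 (R 4.3.3, mean-variance trend, two-sided, Benjamini-Hochberg adjustment over all tested miRNAs, threshold 0.05) after keeping the 269 miRNAs whose mean exceeded the minimum by at least 24.05 linear units. The fit was tested on simulated data. P-values measure the spread between these libraries, and nothing says they came from separate mice; an exact permutation test of 3 against 3 could not go below 0.1. Every late-numbered entry past the filter was named. The members and lists were chosen with earlier results of these data known. Marker names absent from the table were read by their older form (miR-126-3p, miR-142-3p). Sequences came from RefSeq, positions from RefSeq or GENCODE M21 on GRCm38. Python 3.11.15 with pandas 2.3.3, numpy 2.4.6 and matplotlib 3.10.9 was used. Alternatives were other filters, pseudocounts, scalings and variance models, leaving out libraries, collapsing identical rows and removing GC trends.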

Additional observations from a re-analysis of the deposited data

How the results depend on the processing

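The 16 late-numbered entries higher in brown fat numbered 15 to 17 when 1 library was left out, and 0 were lower. With a filter 10 times as high, which tests fewer miRNAs, 7 of 7 tested entries were higher and 0 lower. All but miR-5115 of these 7 passed that filter through brown fat alone. Both counts are therefore a description and no support for a tissue difference. Over entries whose mean passed the filter of 24.05 linear units in each tissue, added after seeing the data, 6 (of 9) were higher. Adding 40 or 100 linear units before log2 left 16 of the 21 entries higher and 0 lower. Over all 269 tested miRNAs, 91 were then higher and 98 lower with 40 added, and 90 and 98 with 100 added. The entries' median log2 difference moved from 4.19 to 2.40 (40 added) and 1.61 (100 added). The median of all tested miRNAs went from -0.45 to -0.37 and -0.28. Of all 157 miRNAs past the filter 10 times as high, 58 were higher and 69 lower. Leaving out 1 library gave 75 to 91 higher and 90 to 97 lower over all 269. The entries' summed linear level in brown fat, 28951, was 33349 with median-of-ratios scaling and 18973 without miR-2137. The count of 28 entries above the minimum was 19 when all libraries of a tissue had to exceed it, and 24 to 28 when 1 library was left out. Of 349 values of single entries under alternatives, 335 kept direction and side of the threshold. That tally is no measure of stability. It includes the 11 entries that passed the filter through brown fat alone, and it counts the identical miR-3473b and miR-3473e separately. Some alternatives, such as no filter, also leave the differences unchanged. With the GC trend removed miR-5122 was at -0.70, miR-6538 at -0.63 and miR-5126 at -1.31. With the trend of the other miRNAs alone, chosen after seeing the data, they were at -0.49, -0.38 and -1.04 (the cause was not tested). For these 3 entries that second trend is extended past 75.0% GC, the highest among the other miRNAs. MiR-3102-3p was at 0.30 without both libraries numbered 3 and, also chosen after seeing the data, without brown library 4 and subcutaneous library 3, those richest in miR-133a-3p. Median-of-ratios scaling, which shifts every log2 difference by the same amount, gave miR-3057-5p a log2 difference of 2.66. No paired analysis was possible because the groups share the replicate number 3 alone. With unknown depth, a value at the minimum gives no limit of detection. The size of differences near it depends on where that minimum lies and may understate the change.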
